A study of Homo sapiens with 38 samples.

Results

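Glucose starvation (GS) of HT-1080 cells was examined on 8 of the 38 arrays of this series. HT-1080 is a human fibrosarcoma cell line that carries mitochondrial DNA. The 2 starved cultures, GS replicates 1 and 2, were kept without glucose and without an added inhibitor for 18 h. They were set against the 6 untreated HT-1080 cultures, controls 1 to 6, for which the labels give no time. A culture here means the cells of 1 array, since the labels do not say whether replicates were grown separately. The arrays were chosen by their titles alone. The sample descriptions assign control 1 to GS replicate 1 and control 6 to GS replicate 2. The other 30 arrays carry 2-deoxyglucose (2DG), tunicamycin, inhibitors, the colorectal line HT-29 or cells lacking mitochondrial DNA. Of these, the 3 HT-1080 cultures with 2DG, a glucose analogue that blocks glycolysis and disturbs protein glycosylation, and the 3 starved HT-29 cultures (18 h, and 14 h for replicate 3), each with its own control, serve below for comparison. The series asks how cancer cells mount the unfolded protein response under such stresses. The composition of the starvation medium is not given in the sources used here, and 1 line stands for the fibrosarcoma.

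Glucose feeds energy production, and it also supplies the sugars that are attached to proteins as they fold in the endoplasmic reticulum (ER). When unfolded proteins accumulate there, the sensors PERK, IRE1 and ATF6 start the unfolded protein response (UPR). ATF6 and the IRE1 product XBP1 induce chaperones and degradation factors, whereas PERK phosphorylates eIF2alpha, which lowers general translation and favours that of the transcription factor ATF4. Its targets include amino acid transporters, synthetases and the factor CHOP (DDIT3). The kinase GCN2, which senses amino acid shortage, reaches ATF4 by the same step.

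Signals are deposited MAS5 intensities, scaled here to the same trimmed mean of 114 on every array. A log2 change is the fitted mean difference of the starved arrays from their own controls, on log2 of the signal plus an offset, with the standard error (SE) and Benjamini-Hochberg adjusted p from limma over all 11456 genes tested. A gene is said to have risen or fallen where that p was under 0.05, the difference had the same sign on both arrays, and both starved signals lay outside the range of the 6 controls. Where 1 group lies under the floor signal of 45.5, the size of a log2 change depends on background and on the offset. Before scaling, the trimmed mean was 126 and 128 on the starved arrays and 124 to 136 on the controls. The ACTB 3' to 5' signal ratio, a measure of RNA integrity, was 1.26 and 1.42 in starved cells, against 1.18 to 1.26 in controls, and its part in the results was not tested. Of 10 mesenchymal markers, 8 exceeded the floor signal of 45.5 on all 8 arrays, and all 10 colon epithelial markers stayed below it on all 8. The summed mesenchymal signal was 12600 and 12100 in starved cells, below the 13100 to 14900 of the controls. The summed epithelial signals were 77.0 and 68.1 in starved cells and 69.8 to 133 in controls. RNA per cell and the number of cells cannot be told apart in such bulk samples.

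Starvation changed the expression of many genes in both directions. Of 11456 genes, 454 rose (3.96%) and 556 fell (4.85%). These shares are the background for each count of list members that rose or fell. By the adjusted p alone, 497 were higher (4.34%) and 583 lower (5.09%), a total of 1080 (9.43%). All 1080 had the same sign on both arrays. The test itself favours this, because disagreement between the 2 arrays shrinks the mean change and widens its spread. Among the 497 that were higher, 240 changed by more than 1 on the log2 scale and 43 by more than 2. Among the 583 that were lower, 280 and 11 did so, so the widest changes were mostly rises. Both starved signals lay above all 6 controls for 1661 genes (14.5%) and below them for 2083 (18.2%), whether or not the test was passed. The own-control differences of the 2 arrays correlated across the 11456 genes with r = 0.584, a description across genes, which are not independent. Of the genes that were higher, 36 differed from their own control by over 1 more on GS replicate 1 and 8 by over 1 more on GS replicate 2. The count of 1080 rests on both cultures: 20 genes passed without GS replicate 1 and 47 without GS replicate 2, where the lone starved array is assumed to vary like the other groups. Nothing states that replicates are separate cultures, so these p-values measure spread between arrays. That spread is pooled over the replicated groups of the fit (GS of each line, and 2DG in HT-1080). It does not come from the starved HT-1080 arrays alone. The fit had 5 residual and 6.62 prior degrees of freedom. With HT-1080 arrays only, 2802 genes passed, so the count depends on which groups supply the spread.

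**Figure D1:**
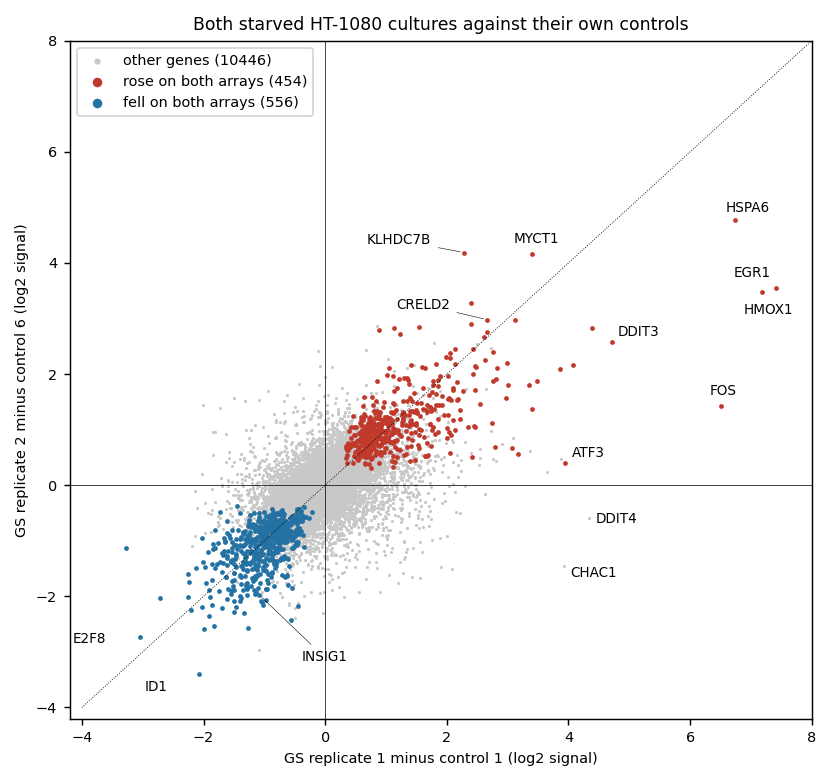
Log2 signal difference of GS replicate 1 from control 1 (horizontal) and of GS replicate 2 from control 6 (vertical), 1 point per gene. The 454 genes that rose (red) and 556 that fell (blue) lie around the dotted line of equality, whereas EGR1, FOS, HMOX1 and ATF3 lie far to its right and CHAC1 has opposite signs.

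The folding machinery of the ER lumen rose, and by nearly the same amount on both starved arrays. Of 24 measured luminal chaperones and folding enzymes, 18 rose and 0 fell, against 3.96% and 4.85% of all genes. The median log2 difference from the own control was 1.37 on GS replicate 1 and 1.32 on GS replicate 2, against -0.03 and -0.01 over all genes. Of the 24, 1 passed without GS replicate 1 and 2 without GS replicate 2. HSPA5 (BiP) is the main Hsp70 chaperone of the ER and holds the sensors inactive in unstressed cells. It had signals of 9891 and 9099.5 in starved cells and 3355 to 4242 (median 3789.8) in controls. The 2 groups did not overlap. HSPA5 rose by 1.40 on the log2 scale (SE 0.15, adjusted p = 0.00242), or 2.64-fold. A second HSPA5 probe set differed by 3.74, so the size of the rise depends on the probe set. HSP90B1, the ER form of Hsp90, had signals of 6102 and 6410.3 in starved cells, against 1501 to 1844 (median 1713) in controls. Its rise of 1.83 (SE 0.21, adjusted p = 0.00242) was equally clear of every control. CRELD2, a secretory-pathway protein with disulfide isomerase activity, showed the largest rise of the list, with 2005 and 3280.3 in starved cells and 259.8 to 411 (median 351.1) in controls (log2 change 2.82, SE 0.32, adjusted p = 0.00242).

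Cochaperones followed. DNAJB9 (ERdj4) rose by 2.36 on the log2 scale (SE 0.41, adjusted p = 0.00737), and DNAJC3, which restrains eIF2alpha kinases, by 1.87 (SE 0.31, adjusted p = 0.00602). SDF2L1 had signals of 1243 and 1663 in starved cells, against 210.4 to 299 (median 242) in controls, a rise of 2.44. HYOU1, the nucleotide exchange factor of HSPA5, rose by 1.93, and DNAJB11 by 1.72. The disulfide isomerases PDIA4 and PDIA6 rose by 1.67 and 1.39. ERO1B, an ER oxidase, had signals of 127 and 114 in starved cells, against 14.8 to 30.1 (median 24.5) in controls. Although its groups did not overlap, its log2 change of 2.52 had an SE of 0.74 and did not pass the test (adjusted p = 0.0531).

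Degradation and the rest of the secretory pathway moved less. In the list of ER-associated degradation, 6 of 18 measured members rose and 0 fell, with a median log2 change of 0.62. Of all genes, 3.96% rose and 4.85% fell, which is also the background for the other 2 lists of this paragraph. The degradation list had median differences of 0.55 on GS replicate 1 and 0.71 on GS replicate 2. With no intensity trend in the limma fit, 2 of the 18 were called higher. SEL1L, the adaptor of the HRD1 ubiquitin ligase, had signals of 1549.6 and 1326 in starved cells and 260.3 to 303 (median 284) in controls, a rise of 2.31 (SE 0.36, adjusted p = 0.00476). HERPUD1, a scaffold of the same complex, rose by 1.78 (SE 0.33, adjusted p = 0.00962). SELENOS rose by 1.05, and the lectin OS9 by 0.93. Among 34 measured genes of ER translocation and vesicle traffic, 7 rose and 0 fell, with a median of 0.42. The signal peptidase subunit SEC11C rose most, by 1.62 (SE 0.22, adjusted p = 0.00341), and the COPI subunits COPA and COPE rose by 0.71 and 0.67. A second SEC11C probe set differed by 0.49, and COPA probe sets ranged from 0.21 to 0.73. Of 24 genes of N-glycosylation and the hexosamine pathway, 5 rose and 1 fell. The risers included the oligosaccharyltransferase subunits OSTC (0.91), RPN1 (0.85) and DDOST (0.59) and the glucosyltransferase UGGT1 (0.83), which marks misfolded glycoproteins. MAN1A1, a Golgi mannosidase, fell by 1.13 (SE 0.31, adjusted p = 0.0411), while its second probe set differed by -0.36. GFPT1, the entry enzyme of hexosamine synthesis, changed by 0.95 without passing the test (adjusted p = 0.0944).

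Promoters of several ER genes carry the ER stress element (CCAAT, any 9 bases, CCACG, on either strand), the site through which ATF6 acts together with NF-Y. The bases before the annotated start are shown for 4 of them, from RefSeq on GRCh38.p14, 5' to 3' on the gene's strand and ending at the base before the start, with matches in capitals.
HSPA5, chr9:125241344-125241463, minus strand: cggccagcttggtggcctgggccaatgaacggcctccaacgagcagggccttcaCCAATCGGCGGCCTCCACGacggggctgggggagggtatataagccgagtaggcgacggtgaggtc
HSP90B1, chr12:103930200-103930409, plus strand: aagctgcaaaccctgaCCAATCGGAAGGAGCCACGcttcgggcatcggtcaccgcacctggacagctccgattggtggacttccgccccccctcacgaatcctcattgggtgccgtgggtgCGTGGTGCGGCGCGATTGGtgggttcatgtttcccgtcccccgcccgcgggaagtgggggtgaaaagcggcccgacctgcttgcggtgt
CRELD2, chr22:49918514-49918633, plus strand: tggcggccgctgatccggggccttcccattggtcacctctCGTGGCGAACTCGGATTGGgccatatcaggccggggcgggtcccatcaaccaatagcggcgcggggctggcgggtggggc
PDIA6, chr2:10812786-10812905, minus strand: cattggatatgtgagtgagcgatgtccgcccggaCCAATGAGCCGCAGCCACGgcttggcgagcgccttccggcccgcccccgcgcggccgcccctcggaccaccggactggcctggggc
HSP90B1 holds 2 matches in this window. The element was searched in the 250 bases before the start of all 9411 tested genes with a RefSeq promoter, and 12 held it (0.128%), among them 6 of 22 luminal genes with a promoter (27.3%). Of these 12, 6 rose: HSPA5, HSP90B1, CRELD2, PDIA6, FICD, which modifies HSPA5 with AMP (log2 change 1.49, SE 0.25, adjusted p = 0.00625), and EIF2A (log2 change 0.56, SE 0.15, adjusted p = 0.0422). The other 6 did not pass the test: ERO1B, ALG12 (0.92), CALR (0.58), SERP1 (0.47), TRIM5 (0.87) and TMEM120A (0.38), all with positive log2 changes. A match describes the letters of the window, and binding was not measured.

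**Figure D2:**
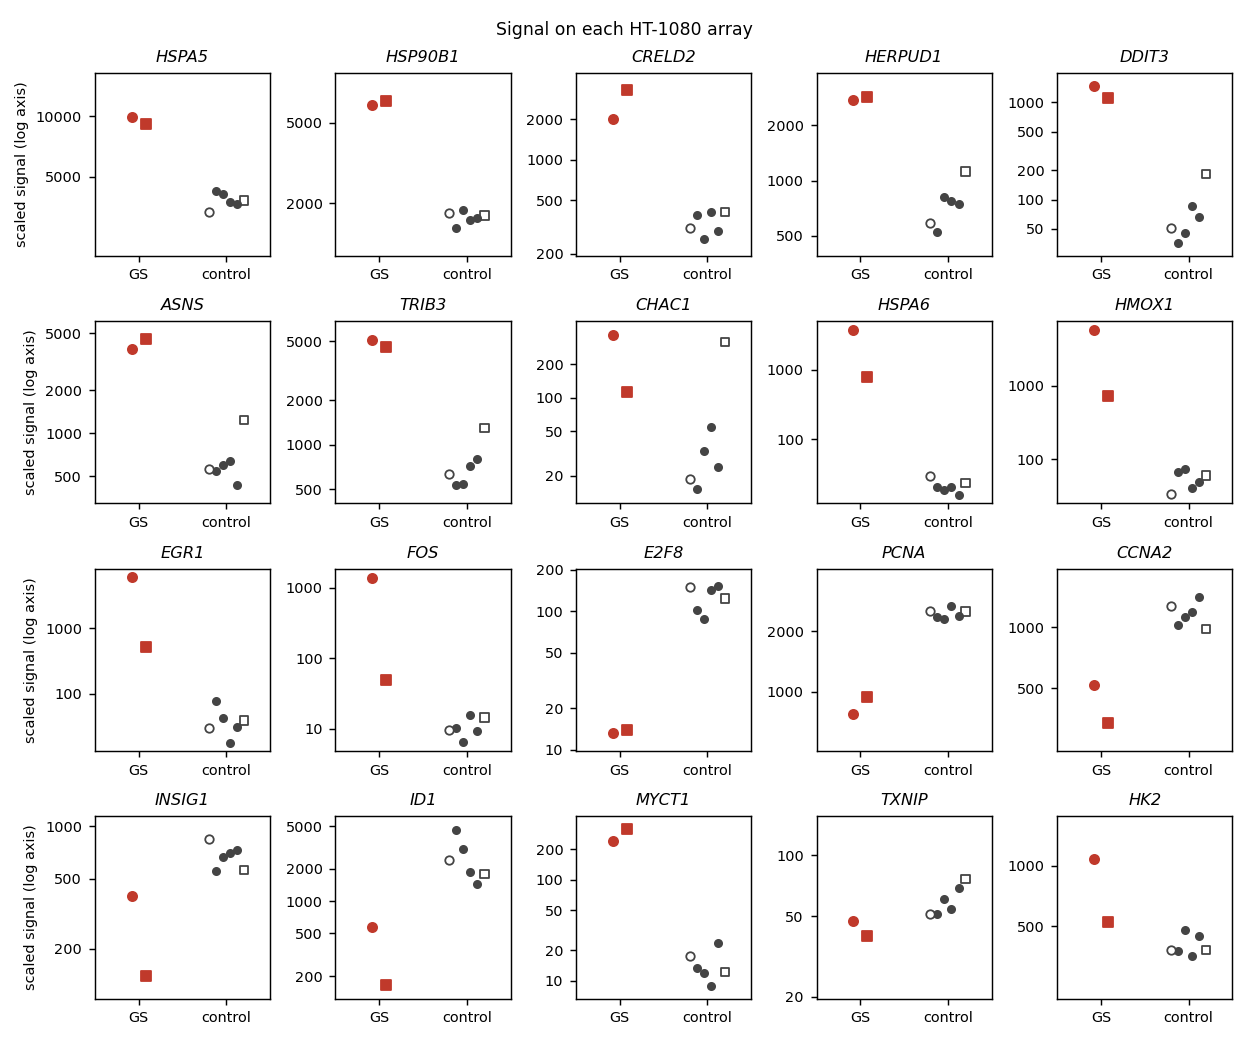
Scaled signal (log axis, ranges differ between panels) of 20 genes on the 2 GS arrays (red, circle replicate 1, square replicate 2) and the 6 controls (open circle control 1, filled circles controls 2 to 5, open square control 6). HSPA5 and HSP90B1 are separated by gaps with little spread within groups, HSPA6, HMOX1, EGR1 and FOS are several-fold higher on GS replicate 1 than on replicate 2, and control 6 is the highest control for CHAC1, ASNS and TRIB3.

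Genes of the UPR sensors and factors and ATF4 targets rose as well. Of 20 measured UPR sensors and factors, 9 rose and 0 fell (3.96% and 4.85% of all genes did). The list's median difference was 1.61 on GS replicate 1 and 0.60 on GS replicate 2 against the own controls, but 1.39 and 1.30 against the median of the 6 controls, and control 6 was the highest control for 12 of the 20 genes (60%, against 20.6% of all genes). Without GS replicate 1, 0 of the 20 passed, and without GS replicate 2, 5 did. DDIT3 (CHOP), a factor linked to cell death under prolonged stress, had signals of 1488 and 1121 in starved cells, against 35.4 to 183 (median 58.4) in controls. It rose by 3.65 on the log2 scale (SE 0.65, adjusted p = 0.00813), 4.71 on GS replicate 1 and 2.58 on GS replicate 2. TRIB3, a pseudokinase induced by ATF4 and CHOP, reached 5101 and 4543 in starved cells, against 539 to 1294 (median 678) in controls (log2 change 2.41, SE 0.30, adjusted p = 0.00273). PPP1R15A (GADD34), which recruits the phosphatase that reverses eIF2alpha phosphorylation, rose by 2.01 (SE 0.33, adjusted p = 0.00618). XBP1 rose by 1.50 and the sensor ERN1 (IRE1) by 1.51, where the 3 ERN1 probe sets ranged from 0.43 to 1.51. These array values do not separate spliced from unspliced XBP1. ATF4 itself, which is controlled mainly in translation, had signals of 5179 and 4799 in starved cells and 2368 to 4051 (median 2559) in controls, and its log2 change of 0.69 missed the threshold (adjusted p = 0.058).

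Many amino acid supply genes rose, where 3.96% of all genes did. Of 21 measured transporters and enzymes that are ATF4 targets, 13 rose and 0 fell (0 passed without GS replicate 1 and 5 without GS replicate 2). ASNS, which makes asparagine, had signals of 3872 and 4546 in starved cells and 432 to 1238 (median 580.4) in controls, a rise of 2.32 (SE 0.29, adjusted p = 0.00275). SLC3A2 is the heavy chain with which several exchangers reach the cell surface. It rose by 2.59 (SE 0.28, adjusted p = 0.00242). Of its partners, SLC7A11, the cystine carrier, rose by 1.56 and SLC7A5, the leucine carrier, by 1.36. CTH, which makes cysteine, rose by 1.70 (SE 0.38), and PHGDH, the entry to serine synthesis, by 1.00 (SE 0.23). Of 17 aminoacyl-tRNA synthetases, 7 rose and 0 fell, with a median of 0.42. WARS1 (tryptophan) rose most, with 1889 and 2746 in starved cells and 460.2 to 697 (median 529) in controls (log2 change 2.00, SE 0.33, adjusted p = 0.00581), followed by SARS1 (1.56), AARS1 (1.11) and GARS1 (0.92).

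Control 6 stood high for this group. Over both ATF4 lists together (39 measured genes), it was the highest of the 6 controls for 32 genes (82.1%), against 20.6% of all genes. Against its own control 6, GS replicate 2 had a median difference of 0.50 over the 39 genes, and GS replicate 1 against control 1 had 1.20. Against the median of the 6 controls the values were 1.19 for GS replicate 2 and 1.05 for GS replicate 1. CHAC1, which degrades glutathione, had signals of 365 and 112 in starved cells, against 15.1 to 317 (median 28.6) in controls, the highest being control 6. Its differences were 3.93 on GS replicate 1 and -1.45 on GS replicate 2 (adjusted p = 0.413). DDIT4, an inhibitor of mTORC1, showed the same opposition (4.35 and -0.58), with 703 in control 6. INHBE, a secreted activin subunit, differed by 3.64 and 0.24, with 308 and 431 in starved cells and 365 in control 6. In a fit of the 2 starved arrays against the 6 controls without the own-control block, 15 of 21 amino acid genes and 13 of 18 ATF4 stress outputs passed the test upwards. Without control 6, 16 and 15 did. Under the own-control fit, 13 and 7 had passed.

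**Figure D3:**
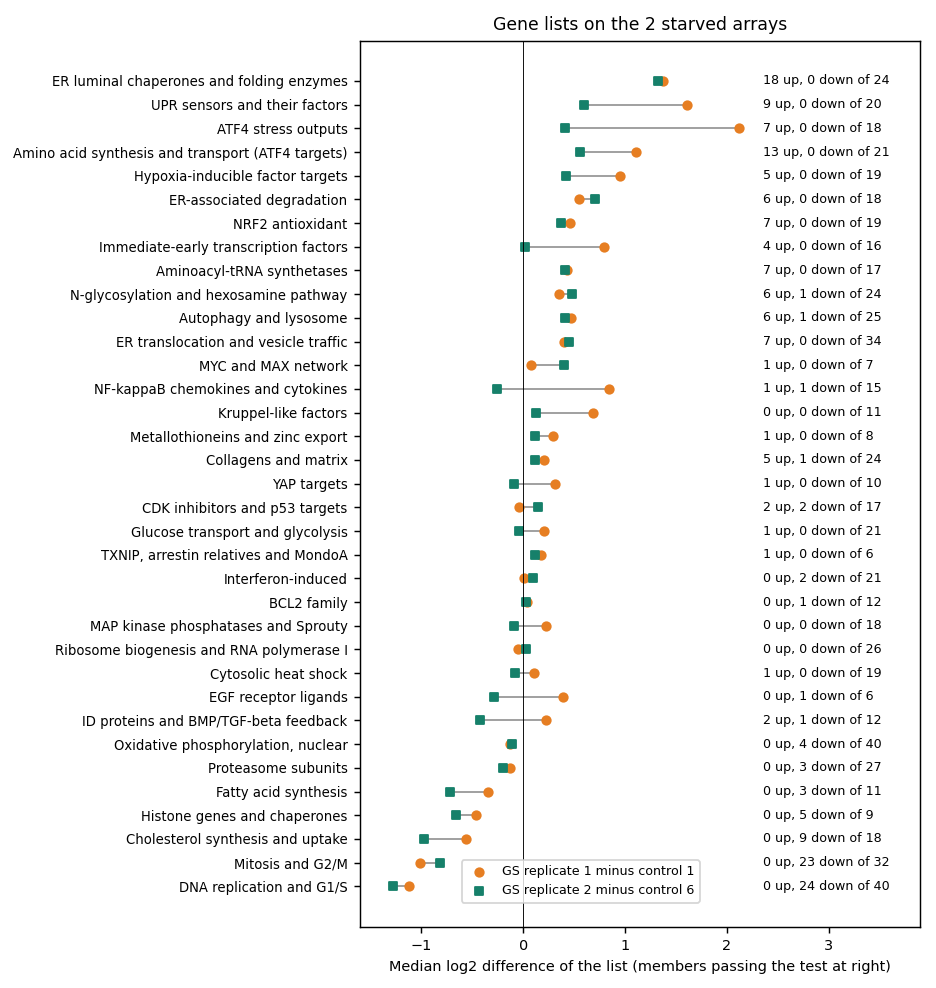
Median log2 difference of 35 gene lists on GS replicate 1 from control 1 (orange circles) and on GS replicate 2 from control 6 (green squares), with the members whose adjusted p was under 0.05 at right. ER luminal genes lie near 1.3 on both arrays, ATF4 stress outputs at 2.12 and 0.41, and DNA replication genes at -1.12 and -1.28.

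A further set of stress genes reached its highest level on GS replicate 1. HSPA6, an Hsp70 that is nearly silent in unstressed cells, had signals of 3771 and 800.1 in starved cells, against 16.1 to 29.6 (median 20.6) in controls. Its log2 change of 5.76 (SE 1.12, adjusted p = 0.0118) stood over 6 controls that all lay under the floor of 45.5, and the starved arrays differed several-fold from each other. A second HSPA6 probe set gave a log2 change of 7.16. The list held 26 cytosolic heat shock genes, of which 19 were measured, the others lacking a usable probe set with 1 symbol. HSPA6 was the only 1 of the 19 measured genes to pass the test. DNAJB1, its cochaperone, had 5071 and 991 in starved cells, against 548 to 605 (median 574) in controls, and DNAJB4 had 628 and 102 in starved cells, against 59.1 to 114 (median 77.1) in controls. Their differences were 3.08 and 2.91 on GS replicate 1 and 0.85 and 0.74 on GS replicate 2, and both missed the threshold (adjusted p = 0.0668 and 0.0691). The median log2 change of the 19 genes was -0.02, that of all genes also -0.02. ZFAND2A, a stress-induced zinc finger protein outside this list, had 3563 and 1328 in starved cells and 144 to 191 (median 181) in controls (log2 change 3.60, SE 0.63, adjusted p = 0.00751). The HSPA6 promoter holds a heat shock element (GAA and TTC in turn, 3 units 2 bases apart), in capitals below.
HSPA6, chr1:161524420-161524539, plus strand: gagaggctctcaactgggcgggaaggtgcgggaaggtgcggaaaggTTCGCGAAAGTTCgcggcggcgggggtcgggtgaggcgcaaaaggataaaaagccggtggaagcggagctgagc
This element was present in 32 of 9411 promoters (0.340%) and in 3 of 17 heat shock list genes with a promoter, HSPA6, CHORDC1 and HSP90AA1. CHORDC1 and HSP90AA1, which assist and form the main cytosolic Hsp90, had log2 changes of -0.08 and -0.28 (adjusted p = 0.923 and 0.247).

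HMOX1, which degrades haem and is induced by oxidative stress, had signals of 5696 and 724 in starved cells and 33.6 to 73.7 (median 54.4) in controls. It rose by 5.33 (SE 0.76, adjusted p = 0.00351), 7.18 on GS replicate 1 and 3.48 on GS replicate 2. Of 19 measured targets of the antioxidant factor NRF2, 4 rose by all criteria, as 3.96% of all genes did. These were HMOX1, SLC7A11, SRXN1 (1.22) and GCLC (1.21), a subunit of the enzyme that starts glutathione synthesis. Another 3 (GCLM, TXNRD1 and OSGIN1) passed the test with the signal of GS replicate 2 inside the control range. GCLM, the other subunit of that enzyme, had 2344 and 846 in starved cells, against 584 to 1244 (median 924) in controls.

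Immediate-early factors, which growth factors and stress switch on within minutes, also differed between the starved arrays. EGR1 had signals of 6128 and 519.8 in starved cells, against 17.9 to 76.6 (median 35.1) in controls, a rise of 5.48 (SE 0.62, adjusted p = 0.00242). FOS had 1394 and 48.8 in starved cells, against 6.51 to 15.6 (median 9.99) in controls, a rise of 3.97 (SE 0.87, adjusted p = 0.019). The second starved array was thus above every control for both genes, but far below the first. MAFF and ZFP36 rose by 1.74 and 1.46. The other 12 of 16 measured members did not pass. The median difference of the list was 0.79 on GS replicate 1 and 0.02 on GS replicate 2. ATF3, which is induced both by ATF4 and as an immediate-early gene, reached 1390.2 and 283 in starved cells, against 79.4 to 213 (median 109) in controls, and passed narrowly (log2 change 2.18, SE 0.60, adjusted p = 0.0442). The EGR1 promoter holds 2 CArG boxes (CC, 6 bases that are each A or T, GG), the site of serum response factor, in capitals.
EGR1, chr5:138465359-138465478, plus strand: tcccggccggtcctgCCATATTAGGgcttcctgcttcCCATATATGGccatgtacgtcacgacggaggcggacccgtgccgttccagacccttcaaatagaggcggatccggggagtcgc
CArG boxes occurred in 97 of 9411 promoters (1.03%). Of 18 MAP kinase phosphatases and Sprouty genes and 11 Kruppel-like factors, 0 passed the test in limma, while 3 and 2 of them had an unadjusted p under 0.05. An antioxidant element (TGAC, any 3 bases, GC) stood in 5 of 15 NRF2 list promoters, against 1165 of 9411 (12.4%).

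Proliferation genes fell on both starved arrays, where 4.85% of all genes fell. Of 40 measured genes of DNA replication and the G1/S transition, 24 fell and 0 rose, and 38 had both starved signals below all 6 controls (18.2% of all genes did). The median log2 difference was -1.12 on GS replicate 1 and -1.28 on GS replicate 2. With no intensity trend in the limma fit, 12 of the 40 were called lower, against 24 in the main fit. With either starved culture left out, 1 of the 40 passed, whereas 38 did in 2 starved against 6 control arrays without the block. E2F8, a repressor of the E2F family, fell, with both starved signals under the floor of 45.5. It had signals of 13.1 and 13.8 in starved cells, against 87.5 to 152 (median 133) in controls, and fell by 2.89 on the log2 scale (SE 0.48, adjusted p = 0.00618). MCM10, needed to start replication, had 265 and 155 in starved cells, against 775 to 1014 (median 823) in controls (log2 change -2.13, SE 0.35, adjusted p = 0.0055). PCNA, the sliding clamp, had 779 and 945 in starved cells, against 2296 to 2671 (median 2431) in controls, and fell by 1.54 (SE 0.33, adjusted p = 0.0177). Neither starved culture reached any control for these 3 genes. Other members that fell were E2F1, an activator of the G1/S programme (log2 change -1.73), the cyclin CCND3 (-1.71), the replication helicase subunits GINS1 (-1.60) and GINS2 (-1.73) and the polymerase subunit POLE2 (-1.79). A second probe set differed by -0.74 for E2F1 and by -0.6 for GINS2. An E2F site (TTT, C or G, GCGC) was found in 6 of the 35 G1/S promoters, against 148 of 9411 (1.57%).

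Of 32 measured mitotic and G2/M genes, 22 fell by all criteria and 0 rose, with medians of -1.01 on GS replicate 1 and -0.82 on GS replicate 2. With no intensity trend in the limma fit, 5 of the 32 were called lower, against 23 in the main fit. With either starved culture left out, 0 of the 32 passed, and 30 did in 2 against 6 arrays without the block. The kinesin KIF20A had signals of 241 and 267 in starved cells, against 707 to 881 (median 787) in controls, a fall with log2 change -1.56, SE 0.27, adjusted p = 0.00751. KIF11, which separates spindle poles (-1.44), CCNA2, which encodes cyclin A2 (-1.41), and the proliferation marker MKI67 (-1.42) fell as well. So did the mitotic kinases AURKA (-1.37) and AURKB (-1.22) and FOXM1, which activates G2/M genes (-1.30). A second AURKB probe set differed by 0.06. SKP2, the F-box protein that targets the inhibitor p27 for degradation, fell by 2.29 (SE 0.48, adjusted p = 0.0159). Among 9 histone genes and chaperones, 5 fell and 0 rose. ASF1B, which delivers histones during replication, fell by 1.83 (SE 0.31), and the histone H2AC6 fell by 1.31. CDKN1A (p21), the main CDK inhibitor under p53, had 292 and 224 in starved cells and 282 to 448 (median 337) in controls and did not pass the test (log2 change -0.23, SE 0.48, adjusted p = 0.812). Of 17 CDK inhibitors and p53 targets, 2 rose (SESN2, 1.87, and GADD45A, 0.93, both also stress genes) and 2 fell (CDKN2D and SESN1). These shares of 11.8% each stood against 3.96% and 4.85% of all genes.

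**Figure D4:**
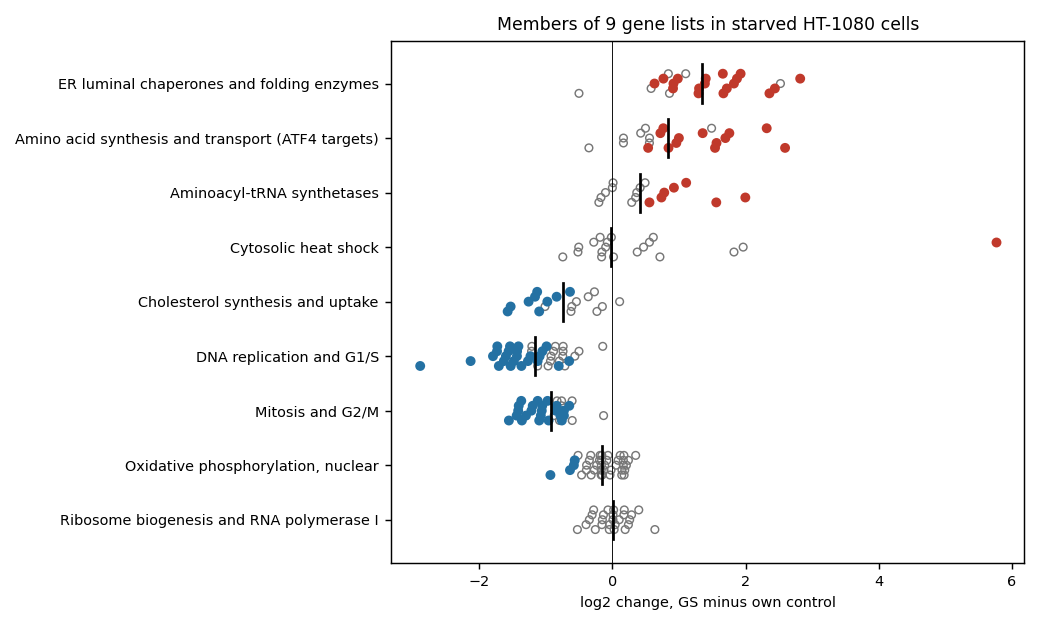
Log2 change (GS minus own control) of each measured member of 9 lists, with filled points for an adjusted p under 0.05 (red higher, blue lower), open points for the rest and a bar at the list median. ER and amino acid genes lie to the right, cholesterol and cell cycle genes to the left, and HSPA6 stands alone at 5.76 among heat shock genes.

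Genes of cholesterol synthesis fell more often than the 4.85% of all genes. Of 18 measured genes, 9 fell and 0 rose (4 without GS replicate 1 and 0 without GS replicate 2), with medians of -0.56 on GS replicate 1 and -0.97 on GS replicate 2. Against the median of the 6 controls these were -0.60 and -0.76, and control 6 was the highest control for 44.4% of the list, against 20.6% of all genes. INSIG1, which retains the sterol sensor in the ER and is itself a target of the sterol factor SREBP2, had signals of 398 and 139 in starved cells, against 558 to 851 (median 684) in controls. It fell by 1.53 (SE 0.24, adjusted p = 0.00482), and both starved arrays lay below every control. IDI1, an isomerase of isoprenoid synthesis, had 957 and 574 in starved cells, against 1449 to 2497 (median 1969) in controls (log2 change -1.57, SE 0.22, adjusted p = 0.00351). EBP (-1.26), DHCR7, the last enzyme of the pathway (-1.16), and SQLE, a rate-limiting oxygenase (-0.98), fell too. HMGCS1 differed by -0.09 on GS replicate 1 and -1.94 on GS replicate 2 and did not pass (adjusted p = 0.108). Other probe sets of IDI1 reached a difference of 0.14. A sterol element was present in 1 of 17 promoters of the list, that of SREBF2, and in 84 of 9411 (0.893%). Of 11 fatty acid synthesis genes, 3 passed the test downwards and 1 of these fell by all criteria. This was FASN, the synthase, with 183 and 213 in starved cells, against 233 to 538 (median 426) in controls (log2 change -0.97, SE 0.22, adjusted p = 0.0228). Control 6 was the highest control for 72.7% of this list. Its medians were -0.35 and -0.72 against the own controls, and -0.59 and -0.54 against the median of the 6 controls, on GS replicates 1 and 2.

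Genes of glucose transport and glycolysis rose at close to the share of all genes. Of 21 measured members, 1 rose (4.76%, against 3.96% of all genes) and 0 fell (against 4.85%). The median log2 change was 0.08, and -0.02 over all genes. The riser was HK2, a hexokinase, with 1076 and 526 in starved cells and 358 to 478 (median 382) in controls (log2 change 0.97, SE 0.26, adjusted p = 0.0411). Its 2 other probe sets had differences of opposite sign, down to -0.55. TXNIP, which glucose normally induces through MondoA, had 47.6 and 39.9 in starved cells, against 51.2 to 76.6 (median 57.5) in controls. Both starved signals lay just below the control range, but the log2 change of -0.47 did not pass (adjusted p = 0.337). Its relative ARRDC3 rose by 1.68 (SE 0.33, adjusted p = 0.0122). Of 19 targets of hypoxia-inducible factors, 5 rose and 0 fell. The risers were LOX (1.61), a collagen crosslinker, PDK1 (1.18), a pyruvate dehydrogenase kinase, P4HA1 (0.93), ERO1A (0.92) and BNIP3L (0.87). Another ERO1A probe set differed by -0.05. VEGFA, an angiogenic factor, differed by 1.48 on GS replicate 1 and 0.00 on GS replicate 2 (adjusted p = 0.15). Its signal in control 1, the own control of GS replicate 1, was 536, the lowest of the 6 and set apart from the rest.

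Most respiratory and proteasomal genes did not pass the test (36 of 40 and 24 of 27). Those lower by the adjusted p made up 10% and 11.1%, against 5.09% of all genes. Of 40 nuclear genes of oxidative phosphorylation, 4 fell (log2 changes -0.93 for SDHA, -0.64 for NDUFB10, -0.58 for NDUFS3 and -0.57 for NDUFV2) and 0 rose, with a median of -0.16. Against the median of the 6 controls, the list medians were -0.12 on GS replicate 1 and 0.03 on GS replicate 2. Control 6 was the highest control for 45% of these genes, against 20.6% of all genes. Of 26 ribosome biogenesis genes 0 passed the test in limma (2 at an unadjusted p under 0.05), with a median of 0.01. Of 27 proteasome subunits 3 fell (PSMD3 -0.73, PSMD1 -0.58 and PSMC2 -0.48). Of 25 autophagy and lysosome genes, 6 rose (3.96% of all genes did), 1 fell and 18 did not pass. MAP1LC3B, which coats autophagosomes, had signals of 1982 and 1904 in starved cells, against 362 to 532 (median 411) in controls, a rise of 2.22 (SE 0.35, adjusted p = 0.00476). SQSTM1, a cargo receptor, rose by 1.82 (SE 0.27), ATG12 by 1.10 and NPC1, the lysosomal cholesterol exporter, by 1.05. A second NPC1 probe set differed by 0.15, and SQSTM1 probe sets ranged from 0.61 to 2.0. VMP1 fell by 0.75 (SE 0.20, adjusted p = 0.0356).

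Other lists held 1 to 6 members past the test, where 9.43% of all genes passed it. ID1, an inhibitor of differentiation driven by BMP, had signals of 568 and 165 in starved cells, against 1436 to 4642 (median 2131) in controls, and fell by 2.73 (SE 0.48, adjusted p = 0.00735). TGIF1, a corepressor in TGF-beta signalling, rose by 1.60 (SE 0.21). ID3 differed by -1.09 and -2.97 and ID2 by 3.87 and 0.47 on GS replicates 1 and 2, and neither passed. Of 15 NF-kappaB chemokines and cytokines, NFKBIZ, an inducible NF-kappaB cofactor, rose by 2.58 (SE 0.39, adjusted p = 0.00393), and IL1B, with 1120.3 and 848 in starved cells and 1640.1 to 3192 (median 2562) in controls, fell by 1.19 (SE 0.28, adjusted p = 0.0252). Of 21 interferon-induced genes, IFIT1 and ISG15 passed the test downwards. ISG15 fell by 0.90. The IFIT1 signal was 1.21 and 1.12 in starved cells and 25.1 to 39.9 (median 26.3) in controls, under the floor on all 8 arrays. The EGF receptor ligand TGFA fell by 0.78. In the MYC network MXD1, a MYC antagonist, rose by 1.93, while MYC had 1253 and 1138 in starved cells and 498 to 845 (median 564) in controls (log2 change 0.67, SE 0.21, adjusted p = 0.0745). Of 24 collagen and matrix genes, LOX, TNC (1.17) and P4HA1 rose and SPARC fell by 0.78. BAD, a promoter of cell death, fell by 0.72, and the other 11 of 12 BCL2 family genes did not pass. By all criteria, 0 of 8 metallothionein and zinc export genes and 0 of 10 YAP targets changed, although MT1H (0.68) and LATS2 (1.07) passed the test in limma with a starved signal inside the control range. Another LATS2 probe set differed by -0.15.

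Several of the largest changes belong to no list. MYCT1, a nuclear protein of incompletely known function, had signals of 238 and 316 in starved cells, against 8.94 to 23.8 (median 12.9) in controls (log2 change 3.78, SE 0.40, adjusted p = 0.00242). RAB39B, a small GTPase of vesicle traffic, rose by 3.12 and KLHDC7B by 3.23. The 20 largest rises also held 4 genes, picked after their values were seen, that are known mainly from myeloid cells. ALOX5AP, which takes part in leukotriene synthesis, had 113 and 436 in starved cells and 7.92 to 50.9 (median 34.1) in controls. The osteoclast receptor OSCAR had 106 and 329 in starved cells and 15.4 to 44.5 (median 30.8) in controls. GPR84, a receptor for fatty acids, had 115 and 247 in starved cells and 15.4 to 28.3 (median 21.9) in controls, and the complement receptor C5AR1 had 49.7 and 147 in starved cells and 3.33 to 18.4 (median 10.7) in controls. Their log2 changes were 3.05, 2.84, 2.64 and 2.64 in that order (adjusted p = 0.00351, 0.00289, 0.00289 and 0.00534). All 4 had the higher signal on GS replicate 2, unlike EGR1 and FOS. Of 10 leukocyte and myeloid markers, 7 stayed below 10 on both starved arrays. The others were LAPTM5, with 289 and 215 in starved cells and 169 to 616 in controls, CSF1R, with 50.2 and 95.3 in starved cells and 81.1 to 112 in controls, and FCER1G, with 37.1 and 53.9 in starved cells and 21.8 to 52.9 in controls. Among the largest falls outside the lists were ERCC6L, a helicase of anaphase bridges (log2 change -2.37), EXO1, a repair nuclease (-2.01), and LMNB1, which encodes lamin B1 (-1.90). Of signalling genes, MAP2K6, a kinase of p38 (-2.18), the phosphodiesterase PDE4B (-2.13), FGF5 (-1.89), the oxidase NOX4 (-1.86) and the formyl peptide receptor FPR1 (-1.93), likewise known mainly from myeloid cells, also fell.

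The 2 starved arrays rarely differed far from their own controls in opposite directions. Differences over 1 in size on both arrays had the same sign for 219 higher and 210 lower genes and opposite signs for 28, while 746 genes passed that size on GS replicate 1 alone and 565 on GS replicate 2 alone. CHAC1 was 1 of the 28. HINT3, a histidine triad hydrolase, was another, with 66.2 and 93.4 in starved cells and 30.8 to 282 (median 85.2) in controls. Its highest control was control 1 and its lowest control 6, so its difference was negative on GS replicate 1 and 1.44 on GS replicate 2 although both starved signals lay inside the control range.

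The response was then set beside that of the same cells under 2DG, which has its own 3 controls (2, 4 and 5). Of the 454 genes that rose under GS, 241 (53.1%) were also called higher under 2DG, which is 43.3% of the 556 genes called there, and 1 was called lower. Of the 556 that fell, 174 (31.3%) were called lower under 2DG (44.6% of 390) and 0 higher. Over all genes, 2DG raised 4.85% and lowered 3.4%. Both sets of calls come from 1 fit and share each gene's estimate of spread, which can raise such overlaps above these shares. The test of the difference between both responses called 1 gene higher under GS (0.00873%) and 1 lower (0.00873%). SNAPC1, a subunit of the snRNA-activating complex, had 3446 and 2197 in starved cells and 518 to 1121 (median 700.1) in controls. It changed by 2.02 under GS (SE 0.16) and 0.35 under 2DG (SE 0.13), a difference of 1.66 (SE 0.21, adjusted p = 0.0328). TXNIP changed by -0.47 under GS (SE 0.29) and 3.30 under 2DG (SE 0.24), a difference of -3.77 (SE 0.37, adjusted p = 0.00498). HSPA5 gave a difference of 0.10 (SE 0.20) and DDIT3 of 0.91 (SE 0.84). HSPA6 differed by 5.51 (SE 1.45, adjusted p = 0.471), HMOX1 by 4.38 (SE 0.99, adjusted p = 0.471) and FOS by 3.65 (SE 1.12, adjusted p = 0.502), all short of the threshold. In the G1/S list, 24 genes fell under GS and 8 under 2DG, with medians of -1.17 and -0.59, and 0 of 40 differences passed. For PCNA the difference was -0.91 (SE 0.42, adjusted p = 0.649). Without 1 of the 3 2DG cultures, 0 to 1 genes differed in all, and 74 did in a fit of the HT-1080 arrays alone. In the G2/M list 23 were called lower under each treatment, with medians of -0.92 and -0.87.

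**Figure D5:**
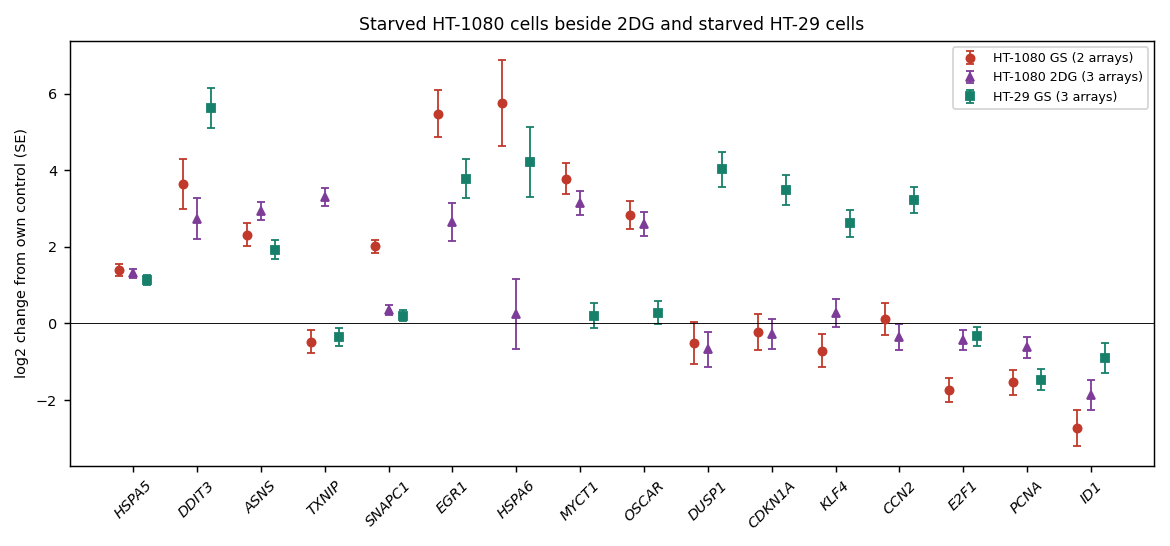
Log2 change from the own control (points) with its SE (bars) for 16 genes in HT-1080 GS (red), HT-1080 2DG (purple) and HT-29 GS (green). HSPA5, DDIT3 and ASNS are raised in all 3, TXNIP under 2DG alone, MYCT1 and OSCAR in HT-1080 under both treatments, and DUSP1, CDKN1A, KLF4 and CCN2 in HT-29.

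The last comparison was with starved HT-29 cells, set against their own 3 controls. Of the 454 genes that rose in HT-1080, 282 (62.1%) were called higher in HT-29 (21.2% of 1332) and 4 lower. Of the 556 that fell, 347 (62.4%) were called lower there (19.6% of 1774) and 12 higher. Over all genes, starvation raised 11.6% and lowered 15.5% in HT-29. These calls share each gene's estimate of spread as well, so the same limit holds for the overlaps. Between the lines, the response was higher in HT-1080 for 19 genes (0.166%) and lower for 46 (0.402%). MYCT1 changed by 3.78 in HT-1080 and 0.20 in HT-29, a difference of 3.58 (SE 0.51, adjusted p = 0.013). OSCAR differed by 2.56 (SE 0.48), PLEKHF1, an endosomal protein, by 2.64 (SE 0.51), and GREB1 by 1.95 (SE 0.35), each with a rise in HT-1080. CLDN2, a tight junction protein, differed by 3.41 (SE 0.61), but in HT-1080 it changed by 0.66 without passing and in HT-29 by -2.75. The widest gap the other way was in DUSP1, a MAP kinase phosphatase, which changed by -0.51 in HT-1080 (SE 0.56) and 4.03 in HT-29 (SE 0.45), a difference of -4.54 (SE 0.72, adjusted p = 0.0242). CDKN1A differed by -3.71 (SE 0.61, adjusted p = 0.0263), KLF4 by -3.33 (SE 0.56), ARL14 by -3.18 (SE 0.51) and the matrix protein CCN2 by -3.10 (SE 0.54). All 5 were raised in HT-29, and of these ARL14 was lower in starved HT-1080 cells (-1.47, adjusted p = 0.0378). In the ER luminal list 0 of 24 differences between the lines passed, with medians of 1.35 in HT-1080 and 0.95 in HT-29. The 65 differences between the lines became 7 without GS replicate 1, 0 without GS replicate 2 and 765 without HT-29 GS replicate 3, the culture starved for 14 h.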

How the data were processed

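Total RNA was labelled as biotinylated cRNA and hybridised to Affymetrix U133 Plus 2.0 arrays, 1 per sample, per the labels. The deposited values are MAS5 signals, linear intensities that the authors made for each of 54675 probe sets. MAS5 is named in the submitters' processing notes, and its version is not given in the sources used here. Tested on the file, the trimmed mean over the 100 normalization control probe sets was equal to within 0.004 on the HT-1080 arrays, whereas no label states that scaling. Here every array was rescaled to a common 2% trimmed mean of 113.7, and log2 was taken after an offset of 5.69 (5%). Probe sets with missing values (232), with several symbols (1801) or with no symbol (11777) were left out, as were those under 45.5 on all but 1 array. Symbols came from GEO's platform annotation. Each of 11456 genes was represented by its probe set of highest mean log2 signal, a reading of the rule that was settled after counts had been seen. Of 166 genes named here, 83 had several probe sets, and sizes could differ between them. The range was 0.76 to 2.45 for ATF3, 1.95 to 3.78 for MYCT1 and -1.89 to -0.53 for FGF5.

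A limma 3.58.1 model (R 4.3.3) was fitted to all 38 arrays with a coefficient per group and the own-control set as a block, with an intensity trend and Benjamini-Hochberg adjustment over all genes. It had 5 residual and 6.62 prior degrees of freedom, and its spread comes from the 3 replicated groups (GS of each line, and 2DG in HT-1080). The pairing of starved arrays with controls comes from the sample descriptions. The difference between both starved arrays correlated with that between controls 1 and 6 at r = 0.383, the highest of 15 control pairs, across genes. Controls 2 and 6 gave 0.335 and controls 3 and 6 gave 0.265, so the value hardly sets control 1 apart from control 2. The pairing itself was not tested. The number of arrays limits the precision. The fit was tested on simulated data. The members, lists and named genes were chosen with earlier results of these data known. Up to 8 called genes per list, the 20 largest rises and falls and the 5 largest differences per contrast are named, and PCNA, PDIA6 and the genes with promoter elements were added after their values were seen. Promoter sequences are from RefSeq (GRCh38.p14).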

Additional observations from a re-analysis of the deposited data

Results flagged for a closer look

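Within the 6 HT-1080 controls, 15 of the 166 genes named here (9.04%) had 1 control whose gap to its nearest neighbour, divided by the range of all 6, exceeded Dixon's critical value. For normally distributed, independent values chance gives about 1 such group in 20. The share over all genes was not counted, and the named genes were not chosen at random, so no excess is read from these counts. In 10 of the 15 the stray control was control 6, with its signal above the rest: ASNS at 1238, ATF4 at 4051, CHAC1 at 317, DDIT3 at 183, DDIT4 at 703, EBP at 1002, INHBE at 365, SESN2 at 524, SLC3A2 at 396 and TRIB3 at 1294. Most of these are ATF4 targets, and control 6 is the own control of GS replicate 2. The others were ARL14 (highest at 77.8 in control 1), DNAJB11 (highest at 972 in control 3), IFIT1 (highest at 39.9 in control 5), OSGIN1 (highest at 49.7 in control 3) and VEGFA (lowest at 536 in control 1).

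Some named genes responded differently between conditions by the test of the difference itself in limma. Against 2DG, the log2 differences were 1.66 for SNAPC1 and -3.77 for TXNIP. Against starved HT-29 cells, the response was higher in HT-1080 for CLDN2 (3.41), GREB1 (1.95), MYCT1 (3.58), OSCAR (2.56), PLEKHF1 (2.64), SNAPC1 (1.81) and TGIF1 (1.67). It was lower in HT-1080 for ARL14 (-3.18), CCN2 (-3.10), CDKN1A (-3.71), DUSP1 (-4.54), FGF5 (-2.41), GADD45A (-2.12), KLF4 (-3.33), MAP2K6 (-2.77), NOX4 (-1.86), PDE4B (-2.44) and PPP1R15A (-2.26). Of all differences from HT-29, 7 were called without GS replicate 1 and 0 without GS replicate 2.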

How the results depend on the processing

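The count of genes past the threshold under starvation (1080) stayed within 1.5 times under both other offsets, both other filters, deposited and quantile scaling, both other probe set rules and no replicate block over all arrays (1362), that is between 768 and 1362. It was 446 with no intensity trend, 2802 with HT-1080 arrays only and 2440 with no replicate block in 2 starved against 6 control arrays. Leaving out 1 array gave 20 to 2368, where controls were left out of the fit of 2 against 6 arrays. The difference from 2DG (2 genes) had 1 gene with deposited scaling, 1 with no intensity trend, 37 with no replicate block, 74 with HT-1080 arrays only and 0 to 3 with 1 culture left out. The difference from HT-29 (65 genes) had 114 with an offset of 15%, 0 with no intensity trend and 0 to 765 with 1 culture left out, while no replicate block gave 73. The causes were not tested. The log2 change of HK2 turned to -0.0192 with the mean of all probe sets. The alternative of taking the highest mean signal before the log was chosen after seeing the data and gave 1083. Of 740 list medians under alternatives, 68 changed sign, in 15 lists whose median was at most 0.25 in size. That only medians of lists with many called members count as reversed was decided after seeing them. Low signals limit the folds of genes near background.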

Other observations

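The rise of ALOX5AP, OSCAR, GPR84 and C5AR1 was set beside 10 leukocyte and myeloid markers, a list chosen after the values of those genes were seen. The summed signal of the markers was 404 and 396 in starved cells and 337 to 830 in controls. LAPTM5 made up most of it, with 289 and 215 in starved cells and 169 to 616 in controls. Their part in these rises was not tested. Under 2DG the same 4 genes changed by 1.83 (ALOX5AP), 2.60 (OSCAR), 2.22 (GPR84) and 3.21 (C5AR1) on the log2 scale against their own controls, with adjusted p from limma of 0.0104 at most, and in HT-29 under starvation none of them passed the test.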
